A study of Mus musculus with 2 samples.

Results

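Neurotensin, its receptors and sortilin were followed through 4 genes, Nts, Ntsr1, Ntsr2 and Sort1, of the 12393 genes on the array. The genes were chosen by name, after Nts had been seen to differ between the clones in the same data, so the values of the 4 genes are given as a description and no test was made on them. Every probe set annotated to 1 of these symbols alone was used, dim ones included. These were 6 of 20380 such probe sets, with 1 for Nts, 1 for Ntsr1, 1 for Ntsr2 and 3 for Sort1. The samples were LM8 cells, a mouse osteosarcoma line that spreads to the lung. The hPHD4 clone was stably transfected with the full-length human PHD4 cDNA in pcDNA3.1, and the control clone with pcDNA3.1 alone. Cells of these clones are called hPHD4 cells and control cells. Both were selected with G418 at 0.5 mg/ml, and 5 µg of total RNA from each was labelled for 1 Affymetrix mouse array. PHD4 is a prolyl hydroxylase of the endoplasmic reticulum membrane, of the same kind as the oxygen-dependent enzymes that target hypoxia-inducible factors for destruction. Each group is 1 clone on 1 array, so a difference between the groups cannot be told apart from a difference between any 2 clones, cultures or arrays, and no p-value or replicate error is given.

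Neurotensin is a secreted peptide of the brain and of endocrine cells of the gut. It is cut, together with the related peptide neuromedin N, from the precursor that Nts encodes. It acts on cells through Ntsr1 and Ntsr2, receptors coupled to G proteins, of which the first signals mainly through Gq, phospholipase C and calcium. Sortilin, encoded by Sort1, binds neurotensin too, but it is a sorting receptor of the VPS10 family that carries proteins between the Golgi apparatus, the cell surface and lysosomes.

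The stretch before the start of Nts is shown because Nts is the member that differed most between the clones. RefSeq places Nts on the minus strand of mouse chromosome 10, and the 250 bases before its annotated start lie at chr10:102490419-102490668 in GRCm38.p6. Capitals mark matches to the motifs searched.
Nts promoter: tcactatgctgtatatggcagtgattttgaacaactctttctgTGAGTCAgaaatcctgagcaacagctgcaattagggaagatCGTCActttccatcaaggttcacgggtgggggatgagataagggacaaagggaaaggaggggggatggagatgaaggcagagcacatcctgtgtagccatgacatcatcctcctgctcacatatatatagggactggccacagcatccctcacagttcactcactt
The motifs were the AP-1 site TGACTCA, the cyclic AMP response element TGACGTCA, its shorter form TGACG, which the full element contains, the TATA box TATAAA, the LEF/TCF sites CTTTGAA and CTTTGAT and the hypoxia response cores ACGTG and GCGTG, each on both strands. The stretch held 1 AP-1 match, 207 bases before the start and read on the gene's own strand as TGAGTCA. It also held 1 match to TGACG, 166 bases before the start and read there as CGTCA, and the other 6 motifs had 0 matches. Of 32851 mouse promoters of the same length, 4.46% held the AP-1 letters and 17.8% held TGACG. TGACGTCA occurred in 1.55% of them, TATAAA in 12.4%, CTTTGAA in 4.46% and CTTTGAT in 3.21%. The promoter of Ntsr1 held TGACG and GCGTG once each, and that of Ntsr2 held GCGTG once and ACGTG on both strands at overlapping places, while GCGTG occurred in 28.2% and ACGTG in 16.6% of promoters. A match describes letters and not binding. Only exact letters were counted, so 0 matches does not mean that close variants of a motif are missing from a stretch.

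Signals are log2 MAS5 values per probe set, and linear signals are powers of 2 of them. Since detection calls were not used here, presence was judged by a floor, the 40th percentile of each array's non-control probe sets, at a linear signal of 81.1 in hPHD4 cells and 67.8 in control cells. A gene was measured when at least 1 probe set lay above the floor in both clones, and its value was the log2 ratio of hPHD4 to control cells averaged over those probe sets. Over all genes, 60.1% were measured and 31.6% lay under the floor in both clones on every probe set. The 2 arrays had the same overall scale, with trimmed mean signals of 500.2 in hPHD4 cells and 500.2 in control cells, but dim probe sets tended to read higher in the hPHD4 clone. Over the 7004 probe sets under the floor in both clones, the median difference was 0.37 on the log2 scale. Neither the introduced human gene nor the mouse PHD4 gene, P4htm, could be followed. The array is a mouse array, and 0 of its probe sets were assigned to P4htm alone.

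Nts was bright in the hPHD4 clone and under the floor in the control clone. The linear signal of its probe set (1422860_at) was 684 in hPHD4 cells, against 55.1 in control cells. On the log2 scale this was 9.42 in hPHD4 cells and 5.78 in control cells. The signal was 3.08 log2 units above the floor in the hPHD4 clone, and its distance from the floor in the control clone was -0.30 log2 units. Measured against the control floor, since the control signal is only a bound, Nts was higher in hPHD4 cells by 10.1-fold or more. Bounds of at least 2-fold in this direction were found for 80 genes, 0.646% of all genes, and 20 genes (0.161%) had such a bound in the other direction. Nts had the second highest of 571 bounds in favour of the hPHD4 clone, after Tgfbi, which encodes a matrix protein induced by TGF-beta. Genes measured in both clones are left out of this rank, and their highest log2 ratio was 3.78, where the Nts bound was 3.33. With no floor, the Nts difference ranked 198 of 20380 probe sets, dim ones included. These ranks describe the contrast on which Nts was chosen and support nothing beyond it. In RNA from a whole culture, more cells expressing Nts and more Nts RNA per cell cannot be told apart.

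**Figure D1:**
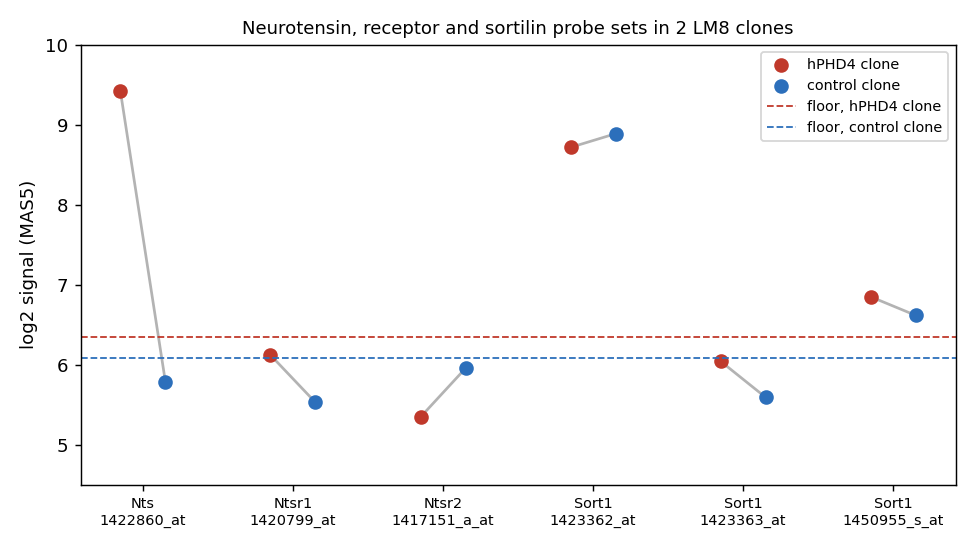
Log2 MAS5 signal (vertical axis) of the 6 probe sets of Nts, Ntsr1, Ntsr2 and Sort1 in the hPHD4 clone (red, left) and the control clone (blue, right), 1 array each, with dashed lines at the floor of each array. The Nts signal is 9.42 in hPHD4 cells and 5.78 in control cells, the 2 receptor probe sets lie under the floors, and 2 of 3 Sort1 probe sets lie above them in both clones.

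Both G protein-coupled receptors of neurotensin stayed under the floor in both clones. Ntsr1, the high-affinity receptor, had a linear signal of 69.5 in hPHD4 cells and 46.1 in control cells. Ntsr2, the receptor of lower affinity, had a signal of 40.6 in hPHD4 cells and 62.0 in control cells. No fold is given for either, since neither signal stood clear of the dim range. The log2 differences were 0.59 for Ntsr1 and -0.61 for Ntsr2, in opposite directions. The middle 50% of the dim probe sets differed by -0.47 to 1.24, a range that holds Ntsr1 and falls just short of Ntsr2, and probe sets of the same gene in the dim range disagreed with an SD of 1.51 (1166 genes). Each receptor had only 1 probe set, so a low transcript level and a poorly reading probe set cannot be told apart.

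Sort1 was present in both clones at about the same level. Its brightest probe set (1423362_at) had a signal of 420.4 in hPHD4 cells and 473 in control cells, a log2 ratio of -0.17. A second probe set (1450955_s_at) read 115 in hPHD4 cells and 98.1 in control cells, a log2 ratio of 0.23. The mean ratio of 0.03 was smaller than the disagreement between these probe sets (SD 0.29, n = 2 probe sets), so no direction is given. The third probe set (1423363_at) was under the floor in both clones, at 65.9 in hPHD4 cells and 48.2 in control cells. All 3 Sort1 probe sets trace to the same sequence entry, and Sort1 lay among the 85.8% of measured genes that lay within 1.5-fold.

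**Figure D2:**
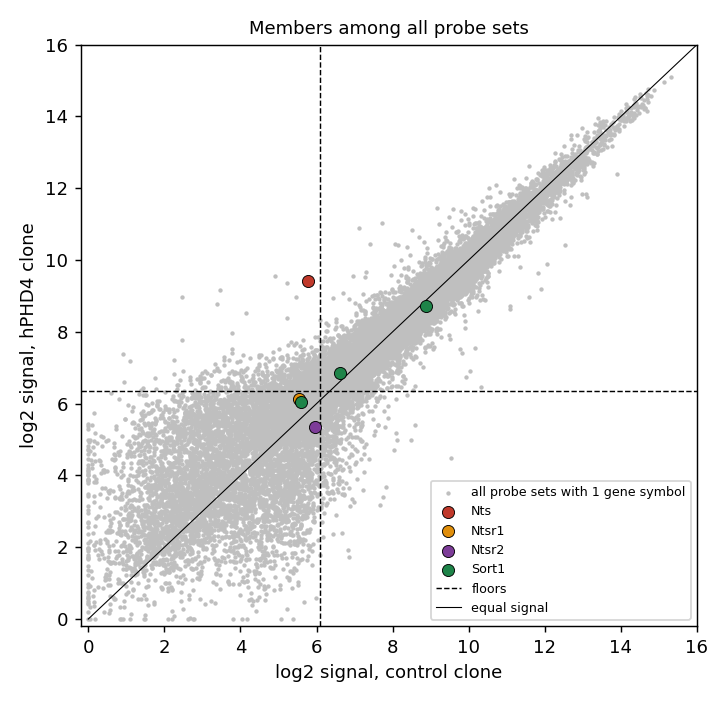
Log2 signal in the hPHD4 clone (vertical axis) against that in the control clone (horizontal axis) for the 20380 probe sets with 1 gene symbol (grey), with the members in colour, dashed lines at the floors and a solid line at equal signal. Nts lies far above the line, at 9.42 in hPHD4 cells and 5.78 in control cells, the brightest Sort1 probe set lies close to it, and Ntsr1 and Ntsr2 lie in the dim corner.

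The enzymes that cut and trim peptide precursors such as that of neurotensin were examined as a list of 13 genes, 11 of them on the array under their own symbol. Of 7 measured, 1 was higher in hPHD4 cells by 1.5-fold or more and 0 were lower by that much; over all measured genes these shares were 8.94% and 5.22%. The median log2 ratio was 0.03, and that of all measured genes was also 0.03. Both were -0.11 after median centring, which sets the arrays to the same median signal. Furin, a convertase of the Golgi apparatus active in most cells, was the higher gene, with signals of 373 in hPHD4 cells and 204 in control cells (1.83-fold, 1 probe set).

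The convertases of the regulated secretory pathway were dim or absent from the list of probe sets. Pcsk1, a convertase typical of endocrine cells, had a signal of 6.60 in hPHD4 cells and 26.7 in control cells, both far under the floor. Pcsk2, its partner in endocrine cells, had no probe set of its own. Pcsk6, which acts on growth factors of the TGF-beta family, had a log2 ratio of 0.39 (1583 in hPHD4 cells and 1211 in control cells), and Pcsk7 one of 0.03. Pcsk4, a convertase of germ cells, was at -0.17. Pcsk5, a convertase related to Pcsk6, lay above the floor only in the hPHD4 clone on the brightest of its 4 probe sets, at least 1.38-fold higher.

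Carboxypeptidases and amidation enzymes were measured in both clones. Cpe, the carboxypeptidase that removes basic residues after the convertases have cut, had signals of 5851 in hPHD4 cells and 4293 in control cells, a log2 ratio of 0.45 on the 1 of its 2 probe sets that was measured. A floor lowered to the 20th percentile also admitted the dim one, and the ratio was then 1.02. Cpd, a related carboxypeptidase of the Golgi apparatus, was at -0.23 over 5 probe sets, and Pam, which amidates the ends of many peptides, at -0.46. Pcsk1n, which encodes an inhibitor of the convertase Pcsk1, was above the floor only in the control clone, lower in hPHD4 cells by 1.10-fold or more.

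Of 10 peptidases that degrade neurotensin, all had probe sets, 7 were measured, and 0 of the 7 differed by 1.5-fold or more in either direction. Over all measured genes 85.8% lay within 1.5-fold, so this count is near the background and nothing is read from it about the list. The median log2 ratio was 0.19, but it was -0.19 with the floor at the 20th percentile, so no direction is given for the list. Thop1 and Nln encode thimet oligopeptidase and neurolysin, metallopeptidases that cut neurotensin. Thop1 read 306 in hPHD4 cells and 349 in control cells, a log2 ratio of -0.19, and Nln was at -0.32. The Nln value rests on 2 probe sets that disagree (SD 0.63), and its brightest alone gave -0.76. Ace, the angiotensin-converting enzyme, was at 0.53, and Ece1, an endothelin-converting enzyme that also degrades peptides inside endosomes, at 0.46. With dim probe sets admitted by a floor at the 20th percentile, Ace was at -0.55. Ece2 was at 0.31, and the cytosolic peptidase genes Prep and Npepps were at 0.19 and 0.17. Mme (neprilysin), Anpep (aminopeptidase N) and Dpp4 were under the floor in both clones.

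The genes through which the neurotensin receptors signal were measured in part. Of 22 genes of the Gq and phospholipase C list on the array, 9 were measured, all 9 with ratios above 0, compared with 3994 of all 7452 measured genes. The 3 lowest, Plcb3, Prkca and Prkcd at 0.02 to 0.04, lay within the shift of 0.14 that median centring makes. The median log2 ratio of the 9 was 0.23, which was 0.06 after quantile normalization or loess correction, and 0.10 after median centring. Gna12, the alpha subunit of a G protein of the G12 family, read 433 in hPHD4 cells and 282 in control cells over 3 of its 5 probe sets (log2 ratio 0.62). It was the 1 gene among the 9 measured in both clones that was at least 1.5-fold higher. Of the 9, 0 were at least 1.5-fold lower, against 8.94% and 5.22% of all measured genes. Itpr3, a receptor for inositol trisphosphate that releases calcium, was above the floor only in the hPHD4 clone, with signals of 195 in hPHD4 cells and 47.5 in control cells, at least 2.87-fold higher. The phospholipase C genes Plcb1, on the brightest of its 4 probe sets, and Plcb2 were likewise above it only in that clone, at least 1.74-fold and 1.21-fold higher. Over all 12393 genes, 571 had a bound in this direction and 276 in the other. These bounds reached 2-fold for 0.646% and 0.161% of all genes, and nothing particular to the list is read from its 3 bounds. Gnaq itself, the Gq alpha subunit, stayed just under the floor, at 80.6 in hPHD4 cells and 61.6 in control cells.

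Among receptor kinases, arrestins and kinase relays, 9 of 13 genes on the array were measured, with a median log2 ratio of 0.26. This median was -0.08 after loess correction, so no direction is given for the list. Egr1, an immediate early transcription factor downstream of the MAP kinases, was 1.83-fold higher in the hPHD4 clone (223, against 122 in the control clone). It was the 1 gene of the 9 measured that was at least 1.5-fold higher, and 0 were at least 1.5-fold lower. Over all measured genes these shares were 8.94% and 5.22%, so nothing particular to the list is read from the counts. Beyond the genes measured in both clones, Src, a tyrosine kinase, was at least 2.02-fold higher on the brighter of its 2 probe sets. Grk5, a kinase that desensitises receptors coupled to G proteins, was at least 2.01-fold lower, at 72.4 in hPHD4 cells and 163 in control cells.

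**Figure D3:**
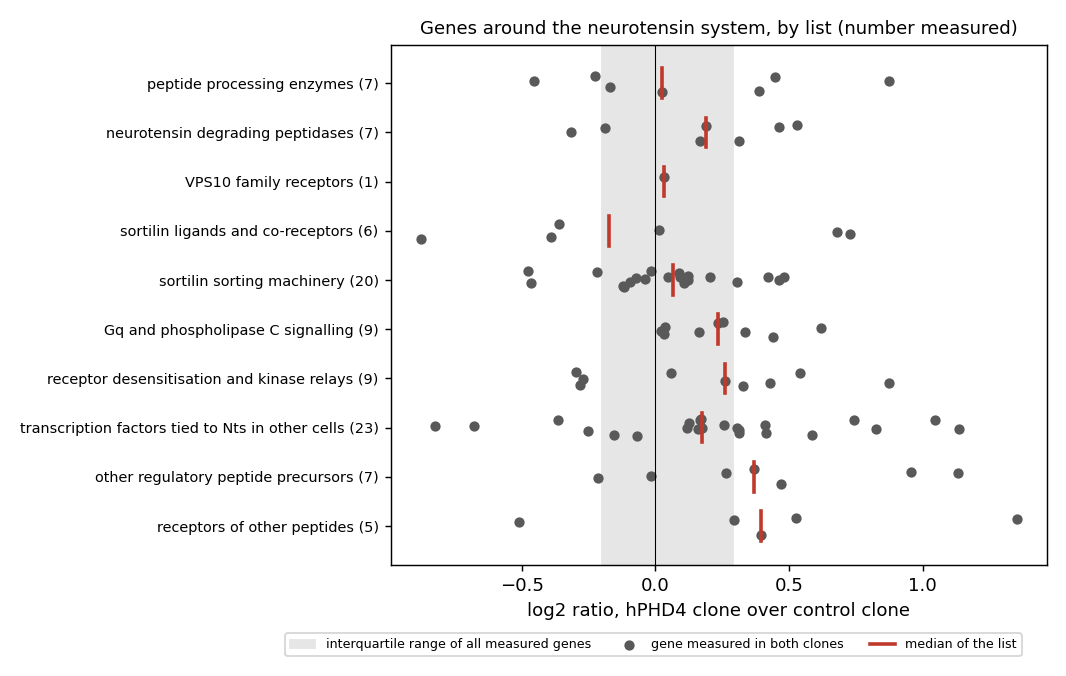
Log2 ratio of hPHD4 to control cells (horizontal axis), of each gene measured in both clones in 10 lists around neurotensin and sortilin, with a red bar at the median of the list and the interquartile range of all measured genes in grey (-0.20 to 0.29). The 20 genes of sortilin's sorting machinery lie between -0.48 and 0.48. The list of transcription factors, which also holds other regulators, reaches from -0.83 to 1.14.

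Sortilin's relatives were dim in the control clone. Sorl1, which encodes the sorting receptor SORLA of endosomes, had a signal of 162 in hPHD4 cells and 47.2 in control cells as read by the brighter of 2 probe sets, and was thus at least 2.39-fold higher. Sorcs2, which pairs with a neurotrophin receptor in neurons, read 120.2 in hPHD4 cells and 31.7 in control cells, at least 1.77-fold higher. Sorcs1 and Sorcs3 were under the floor in both clones. Sorcs1 read 9.59 in hPHD4 cells and 47.7 in control cells, and Sorcs3 read 46.8 in hPHD4 cells and 45.7 in control cells. Thus Sort1 was the only gene of the 5 in the family that was measured in both clones. Over all 12393 genes, 60.1% were measured, 571 had a bound in favour of the hPHD4 clone, and 0.646% had one of at least 2-fold. So small a family cannot be set apart from these shares.

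The machinery that moves sortilin between the Golgi apparatus and endosomes was measured in both clones. All 20 genes on the array passed both floors, with a median log2 ratio of 0.07 (-0.07 after median centring), and 0 were at least 1.5-fold higher or lower. As 85.8% of all measured genes lay within 1.5-fold, nothing particular to the list is read from this count. The genes include the adaptors Gga1 and Gga2, the retromer subunits Vps26a, Vps29 and Vps35 and the sheddases Adam10 and Adam17. Nedd4, a ubiquitin ligase, read 3096 in hPHD4 cells and 3182 in control cells, and the sorting nexin gene Snx2 read 2206 in hPHD4 cells and 2399 in control cells.

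Proteins that sortilin binds or sorts lay on both sides. Of 13 listed genes on the array, 6 were measured, of which 2 were higher in hPHD4 cells by 1.5-fold or more and 1 was lower by that much, beside 8.94% and 5.22% of all measured genes. The median log2 ratio of the 6 was -0.17, and so small a list cannot be set apart from the background. Smpd1, the acid sphingomyelinase of lysosomes, was 1.66-fold higher (1170.0 in hPHD4 cells and 705 in control cells), and Ntrk2, a neurotrophin receptor, was 1.60-fold higher (142 in hPHD4 cells and 88.5 in control cells). Cst3, the protease inhibitor cystatin C, was 1.84-fold lower, at 3196 in hPHD4 cells and 5873 in control cells. Grn (progranulin) and Psap (prosaposin), which sortilin carries to lysosomes, had log2 ratios of -0.39 over 3 probe sets and -0.36 over 2. Lrpap1, the chaperone known as receptor-associated protein, was at 0.01. Ngfr, the neurotrophin receptor that pairs with sortilin, was under the floor at 12.4 in hPHD4 cells and 12.8 in control cells.

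Transcription factors and other regulators tied to Nts in other cells were read beside its promoter letters. The list also holds the DNA methyltransferase genes Dnmt1, Dnmt3a and Dnmt3b, the histone methyltransferase gene Ezh2 and Axin2. Its counts and median are therefore not of transcription factors alone. Of 26 genes on the array, 23 were measured, with a median log2 ratio of 0.17 that ranged from 0.04 to 0.31 under the alternative settings. Past 1.5-fold, 5 of the 23 were higher and 2 lower in hPHD4 cells, beside 8.94% and 5.22% of all measured genes. AP-1 genes did not share a direction. Junb was at 0.82 and the related stress factor Atf3 at 0.74, while Fosl1, also of AP-1, was at -0.68 on 1 of its 2 probe sets. Fos, at 0.59, and Jun, at -0.07, are named after their values were seen. Epas1, which encodes HIF-2 alpha, was 2.20-fold higher with a control signal of 72.1 close to the floor, and Axin2, a target of Wnt signalling, was 2.07-fold higher, read from a single probe set. Ets1 was 1.77-fold lower, but its 3 probe sets disagreed (SD 1.07).

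Precursors of other regulatory peptides were mostly dim. Of 46 on the array, 7 were measured, 35 lay under the floor in both clones, 3 were above it in the hPHD4 clone only and 1 in the control clone only, and 0 of these bounds reached 2-fold. Over all genes, 60.1% were measured and 31.6% lay under the floor in both clones on every probe set. Bounds of at least 2-fold were found for 0.646% of all genes in favour of the hPHD4 clone and 0.161% in the other direction. Calcb, the precursor of a calcitonin gene-related peptide, was 2.19-fold higher in the hPHD4 clone (478, against 218 in the control clone), and Pomc, the precursor of corticotropin and melanocyte-stimulating hormones, was 1.94-fold higher (257 in hPHD4 cells, against 132 in control cells) on the 1 of its 2 probe sets that was measured. For comparison, 1.89% of all measured genes were higher by 2-fold or more and 0.98% lower by that much, or 141 and 73 genes. The counts were 83 and 115 after median centring, 100 and 85 after quantile normalization and 100 and 91 after loess correction. Neuromedin B (Nmb), a bombesin-like peptide, was at least 1.62-fold higher, with 110.1 in hPHD4 cells and 65.0 in control cells. The bounds of the tachykinin gene Tac4 and the relaxin gene Rln1 were at least 1.31-fold and 1.29-fold higher in hPHD4 cells, and that of the endothelin gene Edn3 was at least 1.14-fold lower. Adm, the vasodilator adrenomedullin, had signals of 746 in hPHD4 cells and 866 in control cells. The median of the 7 was 0.37, but it was 0.23 after median centring, 0.13 with the floor at the 60th percentile and 0.00 with dim signals raised to a common floor.

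**Figure D4:**
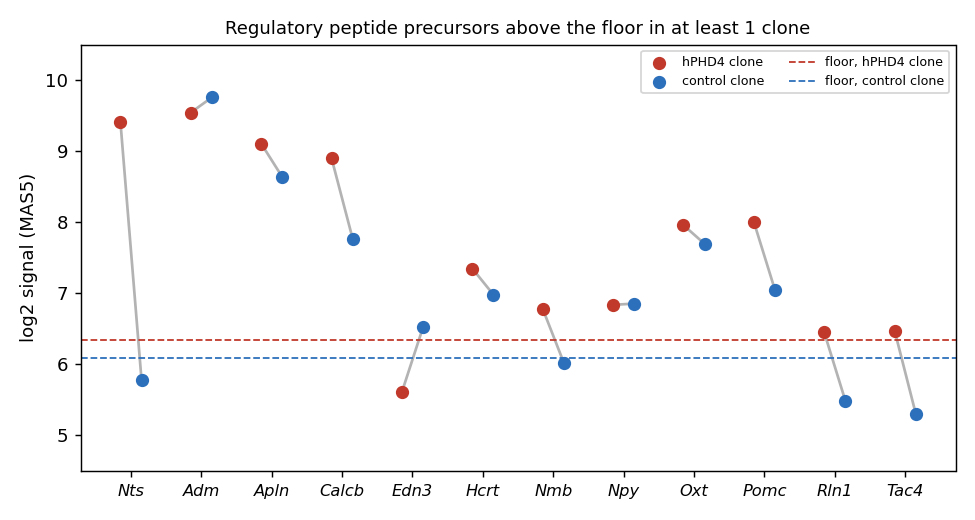
Log2 signal (vertical axis) of Nts and of the 11 other regulatory peptide precursors above the floor in at least 1 clone, hPHD4 clone in red on the left and control clone in blue on the right, 1 array each, with dashed lines at the floors. Nts shows the wide gap of 9.42 in hPHD4 cells and 5.78 in control cells, and Edn3 is above the floor in the control clone only; signals of different probe sets cannot be ranked against each other.

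The probe sets most like that of Nts over the 2 arrays were found by the Euclidean distance of their log2 signals from it. Symbols of clones and predicted genes were passed over, and only the nearest probe set of each gene was kept. They were, from nearest to farthest, Praf2, Tgfbi, Gask1b, Fhl1, Zdhhc12, Coch, Mndal and Ctsc, at distances of 0.55 to 1.19. Praf2, which encodes a membrane protein of the secretory pathway, read 500.5 in hPHD4 cells and 44.0 in control cells. Coch, an extracellular matrix protein best known from the inner ear, read 334 in hPHD4 cells and 37.4 in control cells. With 2 arrays, likeness means only a like pair of signals.

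Around Nts on chromosome 10, the 3 nearest genes with a probe set on each side were read, some of them many genes away. The closest, Rassf9 and Mgat4c, a glycosyltransferase gene, lay 1 and 2 genes away and were under the floor in both clones. Cep290, a gene of the primary cilium 8 genes away, was above the floor in the hPHD4 clone only, by a small margin. It read 87.0 in hPHD4 cells and 63.2 in control cells, a bound of 0.36 on the log2 scale, where that of Nts was 3.33. Over all 12393 genes, 571 had a bound in this direction. Slc6a15, a neutral amino acid transporter gene 8 genes away, had a log2 ratio of -0.55 (374 in hPHD4 cells and 549 in control cells). Ccdc59, 32 genes away, had one of -0.32. The sixth, 4930430F08Rik, 7 genes away, was at 0.10.

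Neighbours of the other members gave the following values. Beside Sort1 on chromosome 3, the proteasome gene Psma5 was at -0.01, the mitotic spindle gene Psrc1 at -0.57, Celsr2 at 0.41 and Sars at -0.35. Beside Ntsr2 on chromosome 12, Trib2, E2f6 and Pqlc3 were at 0.67, 0.50 and 0.85, while Lpin1 was above the floor only in the control clone. Of all these neighbours measured in both clones, Trib2 and Pqlc3, both higher in hPHD4 cells, were the ones past 1.5-fold. Over all measured genes, 8.94% were higher and 5.22% lower by that much. So few neighbours cannot be set apart from these shares, and nothing is read from the place of both beside Ntsr2. Beside Ntsr1 on chromosome 2, Lama5, Cables2 and Ogfr were at 0.50, 0.14 and 0.34, and Gata5 was above the floor only in the hPHD4 clone.

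Markers of the cell types that normally make neurotensin were few. Of 9 neuroendocrine markers on the array, 2 were measured, Uchl1 (1.53-fold higher) and Syp (log2 ratio 0.19), and Eno2 was above the floor only in the hPHD4 clone, at least 1.48-fold higher. The chromogranin and secretogranin genes Chga, Chgb and Scg2 were under the floor in both clones, at 75.9, 3.33 and 25.4 in the hPHD4 clone, against 31.3, 14.4 and 14.8 in the control clone. Scg3, another secretogranin gene, was above the floor in the control clone only, at a log2 signal of 4.17 in hPHD4 cells and 6.09 in control cells, and has no fold because the hPHD4 floor is higher than its control signal. Summed over the 9, the signal was 549 in hPHD4 cells and 449.9 in control cells. Of 12 markers of gut epithelium and enteroendocrine cells, 1 was measured, and the summed signal was 599 in hPHD4 cells and 371 in control cells. Of these, Krt8, a keratin gene, was at least 2.55-fold higher on the brightest of its 3 probe sets, at 173 in hPHD4 cells and 59.4 in control cells. Krt8 had the brightest hPHD4 signal in this sum. Neurod1, a transcription factor of enteroendocrine cells, was at least 1.26-fold higher, and Neurog3, the measured marker, had a log2 ratio of 0.27. The other 9 lay under the floor in both clones. Among them, Krt18, another keratin gene, read 12.1 in hPHD4 cells and 32.8 in control cells. Gcg read 17.9 in hPHD4 cells and 42.0 in control cells, while the remaining dim markers of this list read higher in hPHD4 cells. Of 10 neuronal markers 0 were measured, with summed signals of 313 in hPHD4 cells and 240.2 in control cells. The brightest of these were Tubb3, at 65.7 in hPHD4 cells and 77.9 in control cells, and Nefl, at 59.4 in hPHD4 cells and 10.3 in control cells. Tubb3, like Scg3, was above the floor in the control clone only and has no fold. For comparison, 60.1% of all genes were measured, and the median log2 ratio of all probe sets under both floors was 0.37. None of these markers had a log2 signal of 0. The part of these markers in the Nts difference was not tested.

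Markers of the osteoblast lineage were present in both clones, at unequal levels. Of 10 on the array, 8 were measured, 1 of them at least 1.5-fold higher in hPHD4 cells and 1 at least 1.5-fold lower. Over all measured genes these shares were 8.94% and 5.22%, and so small a list cannot be set apart from them. Omd, the bone matrix proteoglycan osteomodulin, was 4.43-fold lower, at 955 in hPHD4 cells and 4227 in control cells on its single probe set. Postn, the matrix protein periostin, was above the floor in the control clone only, at 42.1 in hPHD4 cells and 196 in control cells, at least 2.42-fold lower. Ibsp, bone sialoprotein, was 2.13-fold higher, at 263 in hPHD4 cells and 124 in control cells, with an SD of 0.67 between its 2 probe sets on the log2 scale. Summed over the 10, the signal was 35412 in hPHD4 cells and 43362 in control cells. The brightest genes weigh most in this sum. Col1a2 read 12598 in hPHD4 cells and 17021 in control cells, and Sparc read 9789 in hPHD4 cells and 11216 in control cells. Of the 8 measured, 4 had log2 ratios above 0 and 4 below, with a median of 0.05 (-0.09 after median centring). The part of the osteoblast markers in the Nts difference was not tested. Sp7, a transcription factor of osteoblasts, read 3039 in hPHD4 cells and 2588 in control cells, and Alpl, the alkaline phosphatase of bone, 3712 in hPHD4 cells and 3218 in control cells. Of 7 leukocyte markers 4 were measured, with log2 ratios between 0.00 and 0.48, and Cd3e, a T cell receptor subunit, was at least 1.31-fold higher; the sum was 695 in hPHD4 cells and 458 in control cells. Of 5 endothelial markers 2 were measured, Kdr at a log2 ratio of 0.07 and Vwf at -0.58, and the sum was 435 in hPHD4 cells and 455 in control cells. Ptprc and Pecam1, which define leukocytes and endothelium, were under the floor in both clones.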

How the data were processed

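The deposited values are log2 MAS5 signals, 1 per probe set. MAS5 is named by the submitters' processing notes, and its version, settings and log base were not given in the sources used here. Base 2 was read from the values, since their powers of 2 had the same mean on both arrays after trimming 2% at each end. There was 1 array per clone, so no test was made and precision is limited by the number of arrays. Python 3.11.15 with numpy 2.4.6 and pandas 2.3.3 was used. Of 22626 non-control probe sets, 20380 had 1 gene symbol, 691 several and 1555 none; those with several or none were not used. Gene numbers matched a RefSeq table of GRCm38.p6 for 20351. That table gave names and the order of neighbours, and the RefSeq promoter table of GRCm38.p6 gave promoters for Nts, Ntsr1 and Ntsr2. When a gene was above the floor in 1 clone only, its fold was bounded by dividing the bright signal by the dim signal or, where that was higher, by the floor of the dim array. Signals of a gene with several measured probe sets are means on the log2 scale. The SD of log2 ratios between measured probe sets of a gene, 0.35 over 2800 genes, leaves out differences between clones and arrays. The members, lists and motifs were chosen with earlier results of these data known. Named genes were all members, every gene measured or bounded in the lists of processing, degradation, VPS10 receptors and sortilin ligands, up to 6 genes past 1.5-fold or bounded in other lists (or the 2 brightest), the 8 genes most like Nts and the neighbours. Other names were added after their values were seen. The steps were tested on simulated data. Scaling, floor, filter, probe set choice and fold threshold were varied.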

Additional observations from a re-analysis of the deposited data

How the results depend on the processing

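The Nts value stayed above 0 under all 8 alternatives of scaling, floor, filter and probe set choice that were run for it. With 1 probe set for Nts, taking the brightest could not change the value, and leaving out other probe sets could only move the floor. A bound in favour of the hPHD4 clone is above 0 by definition, so these runs show its size and are no separate support for its sign. The log2 bound of Nts, 3.33, was 1.61 with the floor at the 60th percentile, since a bound falls as the floor rises. Under the others the value lay between 3.08 and 3.63. At 3.63 the floor was the 20th percentile and the control signal counted as measured. Sort1 lay between -0.17 and 0.17, on both sides of 0. When the 20th percentile was the floor, or when dim signals were raised to 1 common floor, 4 members counted as measured and 0 as above the floor in the hPHD4 clone only; in the first case Ntsr1 was at 0.59 and Ntsr2 at -0.61. The counts of genes at least 2-fold higher and lower were 141 and 73. They were 605 and 188 under the 20th percentile floor, 45 and 34 under the 60th, 83 and 115 after median centring, 100 and 85 after quantile normalization, 100 and 91 after loess correction, 21 and 19 at 3-fold and 666 and 389 at 1.5-fold. The share of higher genes therefore depends on scaling: median centring put the median log2 ratio of all genes at -0.11, against 0.03 as deposited. List medians moved by more than the probe set SD of 0.35 in 6 of 116 values. Under the 20th percentile floor, the degrading peptidases were at -0.19, the VPS10 family at 0.72 and gut markers at 0.72. With dim signals at a common floor, other peptide precursors, their receptors and neuroendocrine markers were at 0.00. No paired analysis was possible because each group holds 1 array, and leaving out an array leaves no comparison. Signals near the floor limit what can be said of Ntsr1 and Ntsr2.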

Other observations

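Receptors of other peptides were dim for the most part. Of 40 on the array, 5 were measured, 27 were under the floor in both clones, 6 were above it in the hPHD4 clone only and 2 in the control clone only. Over all 12393 genes, 60.1% were measured and 31.6% were under the floor in both clones on every probe set. Bounds in favour of the hPHD4 clone were found for 571 genes and in the other direction for 276. These bounds reached 2-fold for 0.646% and 0.161% of all genes. Sstr2, a somatostatin receptor gene, read 214 in hPHD4 cells and 83.7 in control cells, a difference of 2.55-fold whose control signal is close to the floor. Grpr, the receptor of gastrin-releasing peptide, had a log2 ratio of -0.51 over 2 probe sets that disagreed by an SD of 0.51. Ramp1, a partner of the receptor for calcitonin gene-related peptide, read 168 in hPHD4 cells and 117 in control cells (log2 ratio 0.53). Pth1r, the receptor of parathyroid hormone on osteoblasts, read 1642 in hPHD4 cells and 1340.2 in control cells. The bounds in the hPHD4 clone, among them the bradykinin receptor gene Bdkrb1 (at least 1.81-fold higher) the opioid receptor gene Oprk1 (at least 1.74-fold higher), the somatostatin receptor gene Sstr5 (1.66-fold), the galanin receptor gene Galr2 (1.62-fold) and the tachykinin receptor gene Tacr3 (1.49-fold), were all under 2-fold.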
